A study of Rattus norvegicus with 16 samples.

Results

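Steroid hormones of the ovary are made from cholesterol by a short chain of enzymes, and the measurements below follow 10 genes of that chain. They are Star, Cyp11a1, Fdx1, Cyp17a1, Cyp19a1, Hsd17b1, Srd5a1, Akr1d1, Mgarp and Nr5a1, out of 20210 features tested on the arrays. A probe belonged to a gene where the scanner file gave that gene's name. The 10 genes had 14 probes, and each gene was read from its brightest probe on average. The genes were chosen by their roles and on their group levels and spread in the deposited log2 values of these same arrays, among them the very low Star signal of 1 ovary, so group differences are described with intervals and carry no p-value. All 10 passed the filter on dim probes, Akr1d1 only through the group in which it was highest.

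The ovaries came from 16 female rats of the Jcl:SD line of Sprague-Dawley rats, with 4 rats in each of 4 groups. Both genotypes, wild-type (WT) and BRCA1+/-, which keeps 1 intact copy of the breast cancer gene Brca1, were studied with vehicle and with olaparib, an inhibitor of the DNA repair enzymes PARP1 and PARP2. Olaparib was given under the skin at 50 mg/kg each day for 14 days from 3 weeks of age, and ovaries were taken 24 h after the last dose. The vehicle's composition, the age and dosing times of the vehicle rats and the nature of the BRCA1 allele are not given in the sources used here. The design asks how the drug, the genotype and both together alter ovarian gene expression. Values are log2 signals, on which 0 is the 75th percentile of an array and a step of 1 is a doubling. They are set against other arrays for the same probe and never against another gene's probe.

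As background, luteinizing hormone acts on theca and luteal cells and follicle-stimulating hormone on granulosa cells to drive steroid synthesis. STAR brings cholesterol into mitochondria, where CYP11A1, fed with electrons by ferredoxin (Fdx1), cuts its side chain to give pregnenolone. Theca cells turn progestins into androgens with CYP17A1, and granulosa cells turn androgens into estrogens with CYP19A1 (aromatase) and HSD17B1. SRD5A1 and AKR1D1 instead reduce the steroid ring, and the nuclear receptor NR5A1 (SF-1) switches on many genes of the chain.

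Over the whole set, 75th percentile signals ran from 202.3 to 565.8 intensity units and the share of probes well above background from 55.5% to 60.7%. The arrays lay on 2 slides, replicates 1 and 2 of each group on slide 1 and replicates 3 and 4 on slide 2, and each group had a slide column of its own, so group and column cannot be told apart. All 12 granulosa markers and all 9 oocyte markers found were above background on all 16 arrays, as were 11 of 12 theca and interstitial markers. Of 6 adrenal cortex markers, Cyp11b1, Cyp11b2 and Mc2r were above background on 0 arrays, Cyp21a1 on 14, Akr1b7 on 15 and Mrap on 16. A score of 11 oviduct and ciliated epithelium markers was above 0 on 6 arrays, WT olaparib replicates 1 and 3, BRCA1+/- vehicle replicates 3 and 4 and BRCA1+/- olaparib replicates 3 and 4, from 1.49 to 3.75, and below 0 on the others. The brighter of the Brca1 probes averaged -0.43 ± 0.36 in WT vehicle, -0.55 ± 0.49 in WT olaparib, -1.10 ± 0.31 in BRCA1+/- vehicle and -0.71 ± 0.36 in BRCA1+/- olaparib ovaries (SD, n = 4). Whether that probe lies in the altered part of the gene is not known, so it does not check the labels.

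The results turn on a few probes, whose sequences show what was hybridised. Cyp17a1 and Cyp19a1 stood lowest on the same 3 arrays, where Srd5a1 stood highest, and Star carried the low value of a single ovary. Akr1d1 differed between its own probes, so the probe that gave signal and a probe that gave none are both shown. Each probe has 60 bases. The Cyp19a1 probe is printed whole and the others as their first 30 bases, 5′ to 3′, with the position of the whole probe in rat build rn4 as the array files give it.
Cyp17a1, chr1:251965532-251965591, minus strand: gatccatacctcaacacccacagtacaatc
Cyp19a1, chr8:57651982-57652041, minus strand: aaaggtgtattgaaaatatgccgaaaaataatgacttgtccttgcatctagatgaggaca
Srd5a1, chr17:3878645-3878704, plus strand: tctggttcgcagaatgtctagatttgaccc
Star, chr16:70640879-70640938, minus strand: tgtgtgtactcacatctgcactaagtatct
Akr1d1 with signal, chr4:65004347-65004406, plus strand: tatcagcaaagccataacgattctgttttt
Akr1d1 without signal, chr4:65001378-65001437, plus strand: caaagaagaaatgaaggacattgaagcctt

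Star, the carrier of cholesterol into mitochondria, ran from 5.36 to 7.16 in 15 ovaries and was far lower in 1. Its log2 signal in replicates 1 to 4 was 6.30, 6.61, 6.16 and 6.24 in WT vehicle ovaries and 5.79, 6.93, 0.51 and 6.47 in WT olaparib ovaries. It was 5.38, 7.16, 5.36 and 6.04 in BRCA1+/- vehicle ovaries and 6.66, 5.98, 7.02 and 6.11 in BRCA1+/- olaparib ovaries. WT olaparib replicate 3 lay far below the other 15, which overlapped across all groups. A second Star probe, at chr16:70642580-70642639, also had its lowest value there, 1.18, against 3.97 to 6.07 elsewhere. The WT olaparib mean was 4.92 ± 2.98 against 6.33 ± 0.20 in WT vehicle (SD, n = 4), a difference of -1.41 with a 95% interval of -3.58 to 0.77. It was 0.07 without WT olaparib replicate 3, and 0.37 without the 6 arrays with an oviduct score above 0, which include that ovary. By slide it was -0.10 on slide 1 and -2.71 on slide 2, which holds that array.

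**Figure D1:**
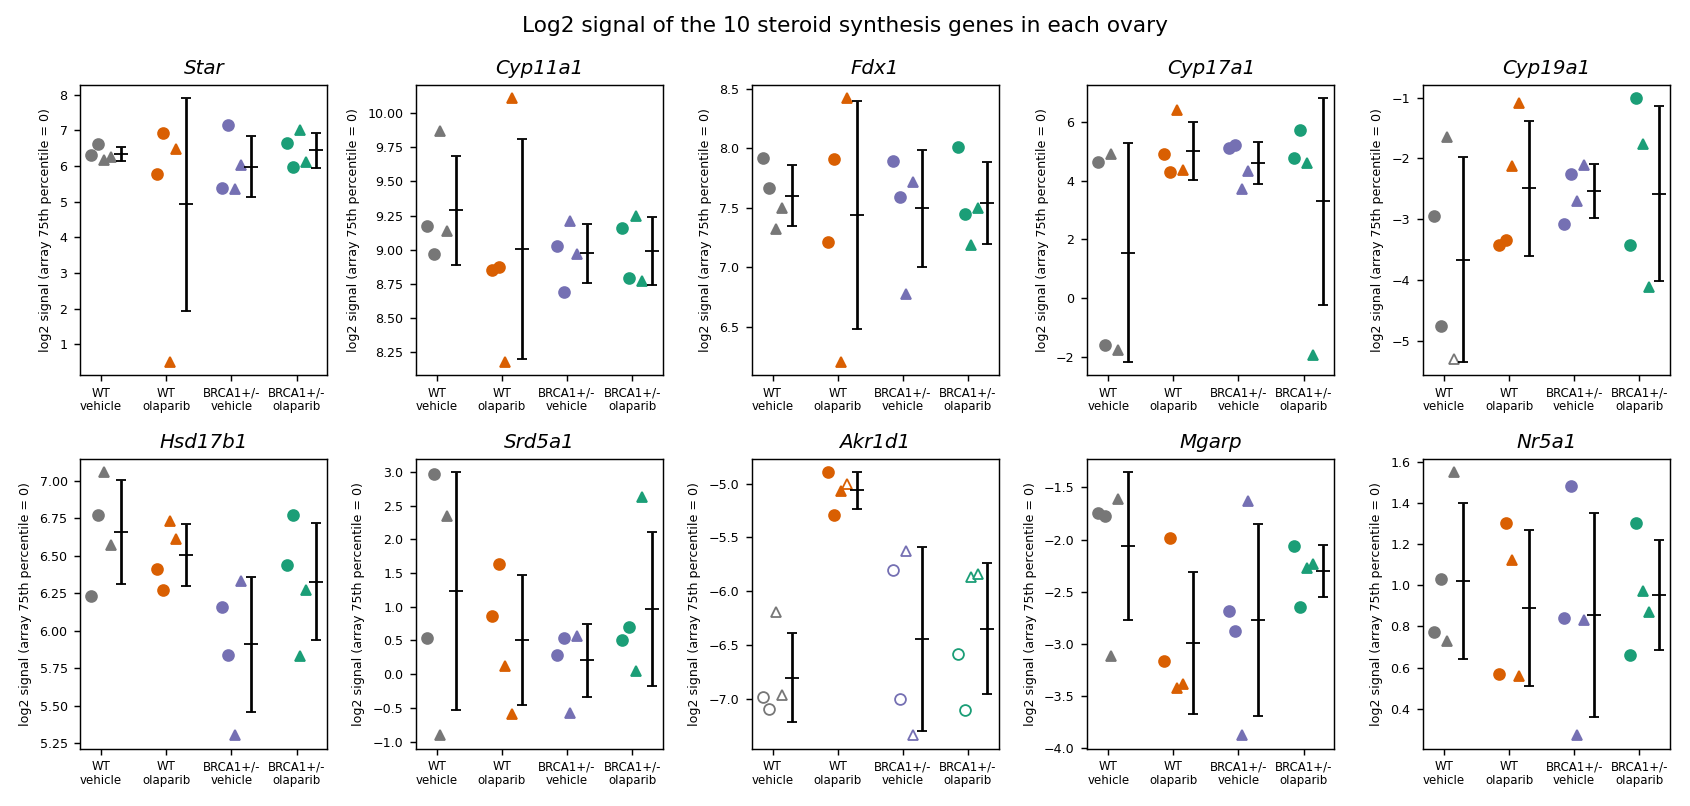
Log2 signal (vertical axes, array 75th percentile at 0) of the 10 genes in each ovary by group, with circles for slide 1, triangles for slide 2, open symbols for arrays not well above background, and bars for the mean ± SD of 4 ovaries. Star is at 0.51 in a single WT olaparib ovary, Cyp17a1 is below 0 in 3 ovaries, and the 4 WT olaparib values of Akr1d1 lie above the other 12.

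Cyp11a1, the enzyme that commits cholesterol to steroids, and its electron carrier Fdx1 were also lowest of all 16 in that ovary. Cyp11a1 was 9.17, 8.97, 9.87 and 9.14 in WT vehicle, 8.85, 8.87, 8.18 and 10.11 in WT olaparib, 9.03, 8.69, 9.21 and 8.97 in BRCA1+/- vehicle and 9.16, 8.79, 9.25 and 8.77 in BRCA1+/- olaparib ovaries. Fdx1 was 7.92, 7.67, 7.32 and 7.50 in WT vehicle, 7.21, 7.91, 6.21 and 8.42 in WT olaparib, 7.89, 7.59, 6.78 and 7.72 in BRCA1+/- vehicle and 8.01, 7.45, 7.19 and 7.50 in BRCA1+/- olaparib ovaries. For both genes the WT olaparib group held the lowest ovary, replicate 3, and the highest, replicate 4, and all groups overlapped. The array of replicate 4 was among the dimmest, with a 75th percentile of 241.0. With quantile normalization replicate 3 stayed lowest for both genes, but replicate 4 was not the highest. Cyp11a1 then read 9.30 in it against 9.33 in WT vehicle replicate 1, and Fdx1 7.98 against 8.20 in WT olaparib replicate 2. The second Cyp11a1 probe, at chr8:61805170-61805229, was 6.85 in replicate 3 and 9.29 in replicate 4 of that group, again its lowest and highest values. With quantile normalization it read 6.92 in replicate 3, still its lowest. In replicate 4 it then read 8.73, below the 9.16 of BRCA1+/- olaparib replicate 1. WT olaparib replicate 3 was the lowest array for 12.4% of all 20210 features, so standing lowest there was not rare. The olaparib difference in WT ovaries was -0.28 (interval -0.98 to 0.41) for Cyp11a1 and -0.17 (-1.0 to 0.67) for Fdx1.

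The low ovary differed in other genes of steroid metabolism too. Of 67 other genes of the pathway that were tested, in lists of enzymes, of cholesterol delivery and of receptors and regulators, 19 had their lowest value in WT olaparib replicate 3. These genes were named after their values were seen. Among the 19, the widest gap was that of Akr1c3, listed in older tables as Akr1c18, an enzyme that inactivates progesterone. It read -4.69 there, 0.86 in WT olaparib replicate 1 and 4.97 to 8.64 in the other 14 ovaries. The prolactin receptor Prlr read 0.94 there against 1.76 to 3.46 elsewhere, and Hsd17b7 read -0.85 against 0.18 to 2.88. Mrap, an accessory protein of melanocortin receptors, read 4.27 against 5.79 to 7.24. Fdxr, which passes electrons to ferredoxin, read 6.79 against 7.57 to 8.87. Hsd3b2, which turns pregnenolone into progesterone, read 5.32 against 5.63 to 7.39, although its near-identical paralogs may share signal.

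Cell type markers moved with these values in the same ovary. Its score over 9 luteal markers was -2.50, the lowest, against -1.15 to 0.73 elsewhere, although that list holds Akr1c3 and Prlr themselves. The prostaglandin receptor Ptgfr of that list read -7.16 there, not well above background, against -4.27 to 1.89 elsewhere. Of the 9 luteal markers, Akr1c3 and Ptgfr lay furthest below their means over the 16 arrays, 6.19 and -0.70. Timp1 was also at its lowest there, 4.75. Ptn, at 0.75, lay above its mean of 0.26, and Lhcgr, at -0.23, lay near its mean of -0.14. The macrophage score of that ovary was -1.25, also the lowest, and its oviduct score was 3.36. The granulosa score was 0.50, the highest, and Amh, a product of granulosa cells in growing follicles, was at its highest there, 6.11. The oocyte score of 0.96 and the theca and interstitial score of 0.34 were also the highest of the 16, and the score over 3 adrenal cortex markers, Mrap among them, -2.76, was the lowest. Their part in the low Star, Cyp11a1 and Fdx1 values was not tested. In whole ovaries, fewer cells of a type and less RNA per cell cannot be told apart.

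**Figure D2:**
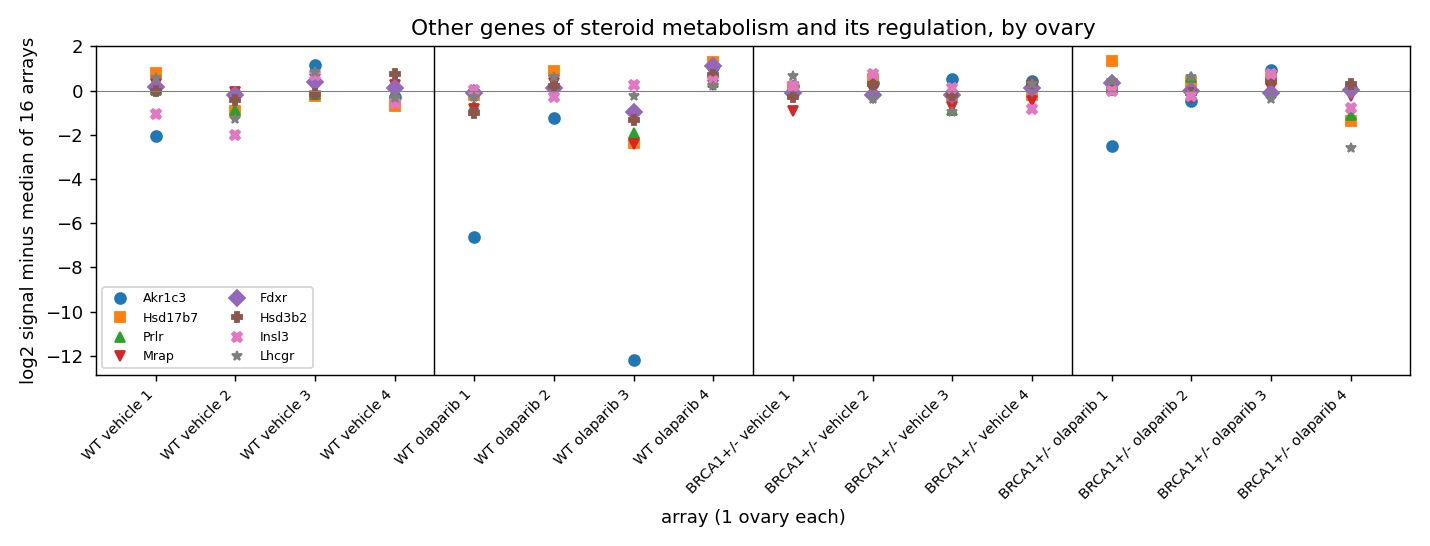
Log2 signal minus the gene's median over 16 arrays (vertical axis) for 8 other genes of steroid metabolism and its regulation, by ovary (horizontal axis, groups divided by lines). Akr1c3 is far below its median in WT olaparib replicates 3 and 1, and Lhcgr is lowest in BRCA1+/- olaparib replicate 4.

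Cyp17a1, the theca enzyme that turns progestins into androgens, varied most among the 10 genes. Its log2 signal in replicates 1 to 4 was 4.63, -1.57, 4.90 and -1.74 in WT vehicle ovaries and 4.91, 4.28, 6.41 and 4.37 in WT olaparib ovaries. It was 5.12, 5.22, 3.70 and 4.31 in BRCA1+/- vehicle ovaries and 4.77, 5.70, 4.61 and -1.93 in BRCA1+/- olaparib ovaries. The values thus fell into 13 ovaries from 3.70 to 6.41 and 3 ovaries below 0, of which 2 were WT vehicle and 1 was BRCA1+/- olaparib. The probe was well above background in all 16, and the lowest and highest ovaries were 323-fold apart. The SD within groups was 2.63.

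The 3 ovaries with little Cyp17a1 stood apart in its neighbours in the chain. Cyp19a1, the aromatase of granulosa cells, was -2.94, -4.75, -1.65 and -5.30 in WT vehicle, -3.42, -3.34, -2.12 and -1.09 in WT olaparib, -3.07, -2.26, -2.70 and -2.11 in BRCA1+/- vehicle and -3.42, -1.01, -1.77 and -4.11 in BRCA1+/- olaparib ovaries. Its 3 lowest values were in those same 3 ovaries, and in WT vehicle replicate 4 it was not well above background. Srd5a1, which reduces testosterone and progesterone, was 0.54, 2.97, -0.91 and 2.35 in WT vehicle, 0.86, 1.64, 0.12 and -0.59 in WT olaparib, 0.29, 0.53, -0.58 and 0.57 in BRCA1+/- vehicle and 0.50, 0.70, 0.05 and 2.63 in BRCA1+/- olaparib ovaries. Its 3 highest values were in the same 3 ovaries. Among all features, 1.23% had these 3 arrays as their lowest and 2.02% as their highest. The arrays were picked for Cyp17a1 after its values were seen, so these shares are a description.

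**Figure D3:**
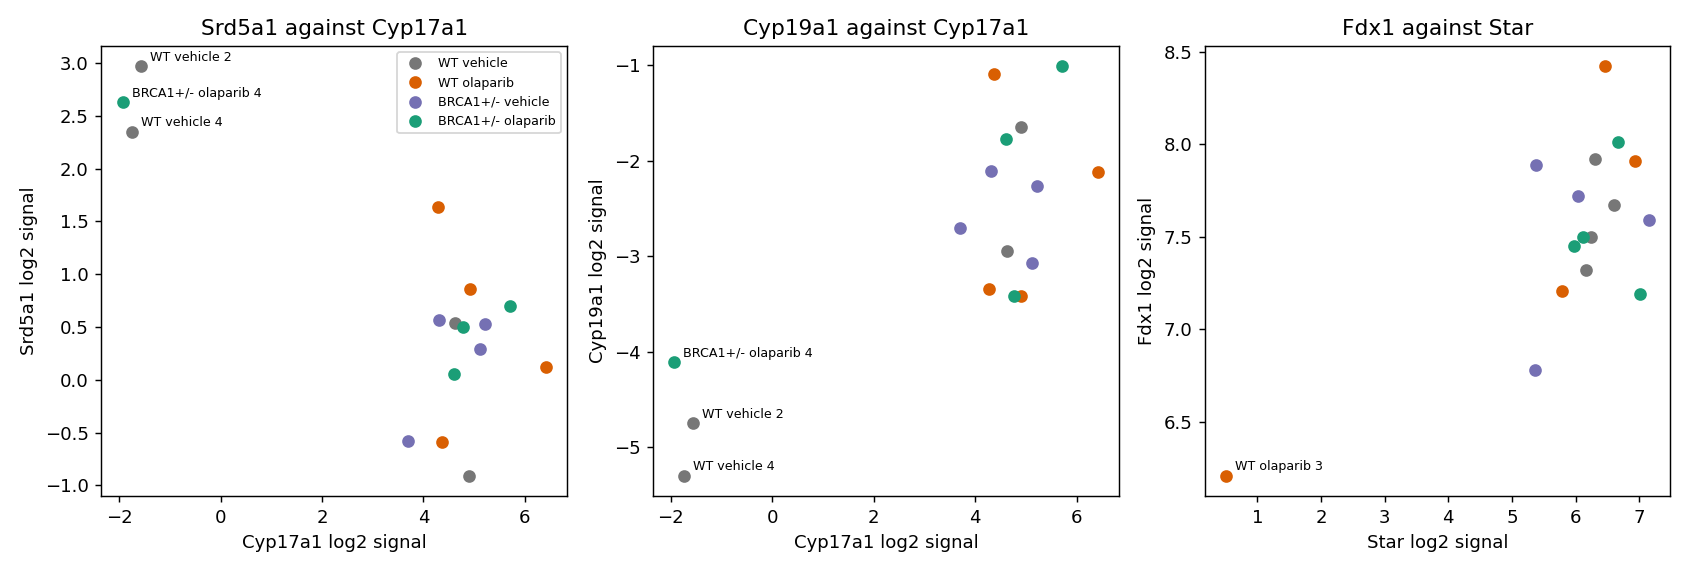
Log2 signals of pairs of genes in the 16 ovaries, coloured by group, with Srd5a1 and Cyp19a1 against Cyp17a1 and Fdx1 against Star. The 3 ovaries with Cyp17a1 below 0 are highest in Srd5a1 and lowest in Cyp19a1, and WT olaparib replicate 3 is lowest in both Star and Fdx1.

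Other genes in these 3 ovaries gave a mixed picture. Of the 67 pathway genes, 2 had them as their 3 highest, Srd5a3 at 2.30 to 2.83 against 1.38 to 2.10 elsewhere and Akr1c2 at -2.11 to -1.51 against -5.07 to -2.70. None of the 67 had them as the 3 lowest. Lhcgr, the receptor for luteinizing hormone, had its lowest values in 2 of them, BRCA1+/- olaparib replicate 4 at -2.58 and WT vehicle replicate 2 at -1.30, while WT vehicle replicate 4 read -0.35. Insl3, a hormone of theca cells, read 1.11 in WT vehicle replicate 2, its lowest value, and 2.54 and 2.33 in WT vehicle replicate 4 and BRCA1+/- olaparib replicate 4, within the 2.03 to 3.87 of the others. The theca and interstitial score was -0.65, 0.07 and -0.25 in them, against -0.34 to 0.34 elsewhere, and their oviduct scores were -1.09, -2.40 and 1.88. The part of these values in the Cyp17a1 result was not tested.

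The 3 ovaries set the group values of Cyp17a1. The WT vehicle mean was 1.56 ± 3.71, WT olaparib 4.99 ± 0.98, BRCA1+/- vehicle 4.59 ± 0.72 and BRCA1+/- olaparib 3.29 ± 3.51 (SD, n = 4). The olaparib difference in WT ovaries was 3.44 (interval -0.19 to 7.07), with 3.07 on slide 1 and 3.81 on slide 2, and between 2.34 and 4.55 with any 1 array left out. It was 0.23 without the 3 ovaries, a choice made after the data were seen and on this gene itself. The genotype difference with vehicle was 3.03 (-0.60 to 6.66), and -0.18 without them. In BRCA1+/- ovaries the olaparib difference was -1.30 (-4.92 to 2.33), and 0.44 without replicate 4 of the olaparib group. For Cyp19a1 and Srd5a1 the olaparib differences in WT ovaries were 1.17 and -0.73 with the 3 ovaries and -0.20 and 0.69 without them.

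Srd5a1 was also lowest in the 3 dimmest arrays, WT vehicle replicate 3, WT olaparib replicate 4 and BRCA1+/- vehicle replicate 3, whose 75th percentile signals were 205.8, 241.0 and 202.3 against 330.9 or more elsewhere. Among all features 1.26% had these 3 arrays as their lowest and 3.96% as their highest. Hsd3b1 and Stard3 had them as their highest, Hsd3b1 at 9.89 to 9.98 against 8.41 to 9.14 and Stard3 at 4.42 to 4.46 against 3.68 to 4.38. The part of array brightness in these values was not tested.

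Hsd17b1, which turns estrone into estradiol in granulosa cells, had the smallest SD within groups of the 10 genes, 0.36. It was 6.23, 6.77, 7.06 and 6.57 in WT vehicle, 6.41, 6.27, 6.73 and 6.61 in WT olaparib, 6.16, 5.84, 5.30 and 6.33 in BRCA1+/- vehicle and 6.44, 6.77, 5.83 and 6.27 in BRCA1+/- olaparib ovaries. The BRCA1+/- vehicle mean of 5.91 ± 0.45 was the lowest and the WT vehicle mean of 6.65 ± 0.35 the highest (SD, n = 4), with a small overlap between single ovaries. The genotype difference with vehicle was -0.75 (interval -1.29 to -0.20), with -0.50 on slide 1 and -0.99 on slide 2, and it ran from -0.89 to -0.54 with any 1 array left out. With olaparib it was -0.18 (-0.73 to 0.37). The difference between the 2 genotype effects, the interaction, was 0.57 (-0.21 to 1.34). BRCA1+/- vehicle replicate 3, lowest in Hsd17b1, also had the lowest granulosa score, -0.58, the highest oviduct score, 3.75, and the dimmest array, 202.3. For genotype with vehicle 1 of 12 granulosa markers was higher, against 42.3% of all features. The median of those markers was -0.20, against -0.06 over all features. The part of these values in the Hsd17b1 difference was not tested.

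Akr1d1, a reductase best known from bile acid synthesis in liver, was dim throughout. It was -6.98, -7.09, -6.19 and -6.96 in WT vehicle, -4.89, -5.29, -5.07 and -5.00 in WT olaparib, -5.80, -7.00, -5.63 and -7.34 in BRCA1+/- vehicle and -6.58, -7.10, -5.87 and -5.84 in BRCA1+/- olaparib ovaries. The 4 WT olaparib ovaries lay above all others, and 3 of them were the only arrays well above background. Measured means were -5.06 ± 0.17 in WT olaparib and -6.81 ± 0.41 in WT vehicle ovaries (SD, n = 4). Because no WT vehicle array was above background, only a nominal bound can be given. It was at least 1.62-fold higher with olaparib, and likewise at least 1.74-fold higher in WT than in BRCA1+/- olaparib ovaries. The gene passed the filter through the WT olaparib group alone, so its higher signal there is a description and supports nothing. These bounds set the mean of all 4 arrays of the brighter group against the lowest signal called above background on each dim array. They are not strict, since a signal that is not called can lie above that lowest called signal. Replicate 4 of the brighter group was itself not well above background, at -5.00. The other probes for the gene, at chr4:65001378-65001437 and chr4:65005616-65005677, were above background on 0 arrays. Their WT olaparib means were -7.53 and -7.61, against -7.18 and -7.51 in WT vehicle ovaries. With background removed by the normexp method the measured difference of 1.74 became 0.05. Of 8 liver markers, Fgb, Apoh and Tat were above background on 0 arrays, Alb on 1, Serpina1 on 11, Cyp2e1 on 15 and Apoa1 and Ttr on 16. The score over the 4 liver markers tested ran from -0.61 to -0.09 in WT vehicle, -1.05 to 0.60 in WT olaparib, 0.03 to 1.45 in BRCA1+/- vehicle and -0.99 to 0.78 in BRCA1+/- olaparib ovaries, and its part in the Akr1d1 signal was not tested.

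Mgarp, a mitochondrial protein of steroid-producing cells, was dim but above background in every ovary. It was -1.74, -1.77, -3.12 and -1.61 in WT vehicle, -3.17, -1.98, -3.42 and -3.39 in WT olaparib, -2.69, -2.88, -3.88 and -1.63 in BRCA1+/- vehicle and -2.06, -2.65, -2.27 and -2.23 in BRCA1+/- olaparib ovaries. All groups overlapped. The olaparib difference was -0.93 (interval -1.90 to 0.05) in WT and 0.47 (-0.51 to 1.44) in BRCA1+/- ovaries, and the interaction was 1.40 (0.02 to 2.77), or 0.64 with normexp background.

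Nr5a1, the transcription factor of the chain, stayed between 0.27 and 1.55 in all 16 ovaries. Group means ran from 0.86 ± 0.49 in BRCA1+/- vehicle to 1.02 ± 0.38 in WT vehicle ovaries (SD, n = 4), and its 4 group differences ran from -0.16 to 0.09. Neither the ovary low in Star, at 1.12, nor those low in Cyp17a1, at 1.03, 1.55 and 0.87, were its lowest. Promoters of 5 of the 10 genes, Cyp11a1, Fdx1, Srd5a1, Mgarp and Nr5a1, matched a RefSeq table of build GRCr8, from 250 bases before to 50 after the start. On either strand, 0 of the 5 held CAAGGTCA or CAAGGCCA, forms of the SF-1 site, or TATAAA. Of all 33469 promoters in the table, 1.52%, 2.19% and 14.2% held them. No match says only that these letters are not in the window.

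**Figure D4:**
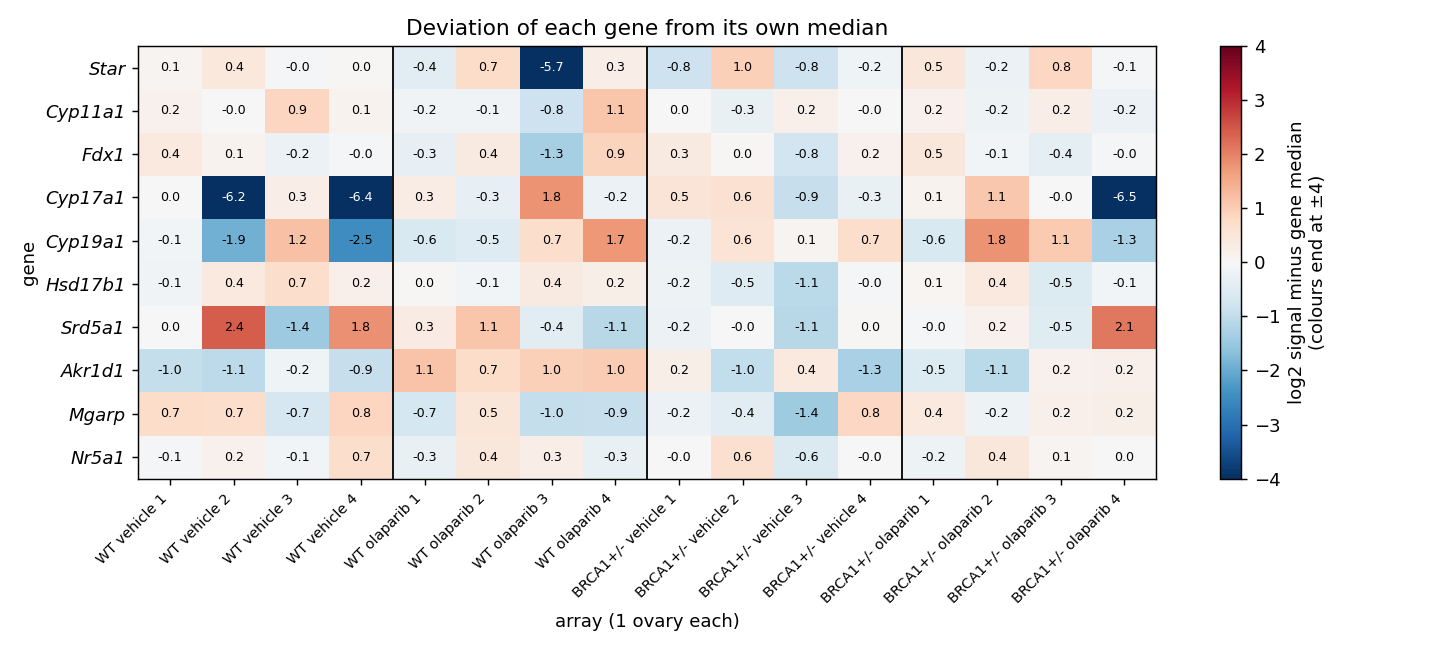
Log2 signal of each gene minus its median over the 16 arrays (colours and printed values, colours ending at ±4), with genes in rows and ovaries in columns. The darkest cells are Star in WT olaparib replicate 3 and Cyp17a1 in WT vehicle replicates 2 and 4 and BRCA1+/- olaparib replicate 4.

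Across groups, limma called 0 of the 10 genes in each of 4 comparisons and in the interaction, at an adjusted p under 0.05, where it called 0% of all 20210 features. The choice of genes used these contrasts, so nothing is read from the counts. At an unadjusted p under 0.05, 1 of 10 passed for olaparib in WT ovaries (4.33% of all features), 0 for olaparib in BRCA1+/- ovaries (1.18%), 1 for genotype with vehicle (5.49%), 1 for genotype with olaparib (0.915%) and 2 for the interaction (3.43%). Akr1d1 was the gene that passed for olaparib in WT ovaries and for genotype with olaparib, and 1 of the 2 for the interaction. It was dim as described and kept by the filter only through the WT olaparib group, so these passes support nothing. With any 1 array left out these counts ran from 1 to 4 for olaparib in WT and 0 to 1 in BRCA1+/- ovaries, 1 to 5 for genotype with vehicle and 1 to 2 with olaparib, and 1 to 4 for the interaction. The 4, 5 and 4 were all without WT vehicle replicate 3. The median difference of the 10 genes was -0.16 for olaparib in WT ovaries, against -0.07 over all features, and 0.09 against 0.02 in BRCA1+/- ovaries. For genotype it was -0.24 against -0.06 with vehicle and 0.02 against 0.02 with olaparib. These comparisons share groups of ovaries.

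**Figure D5:**
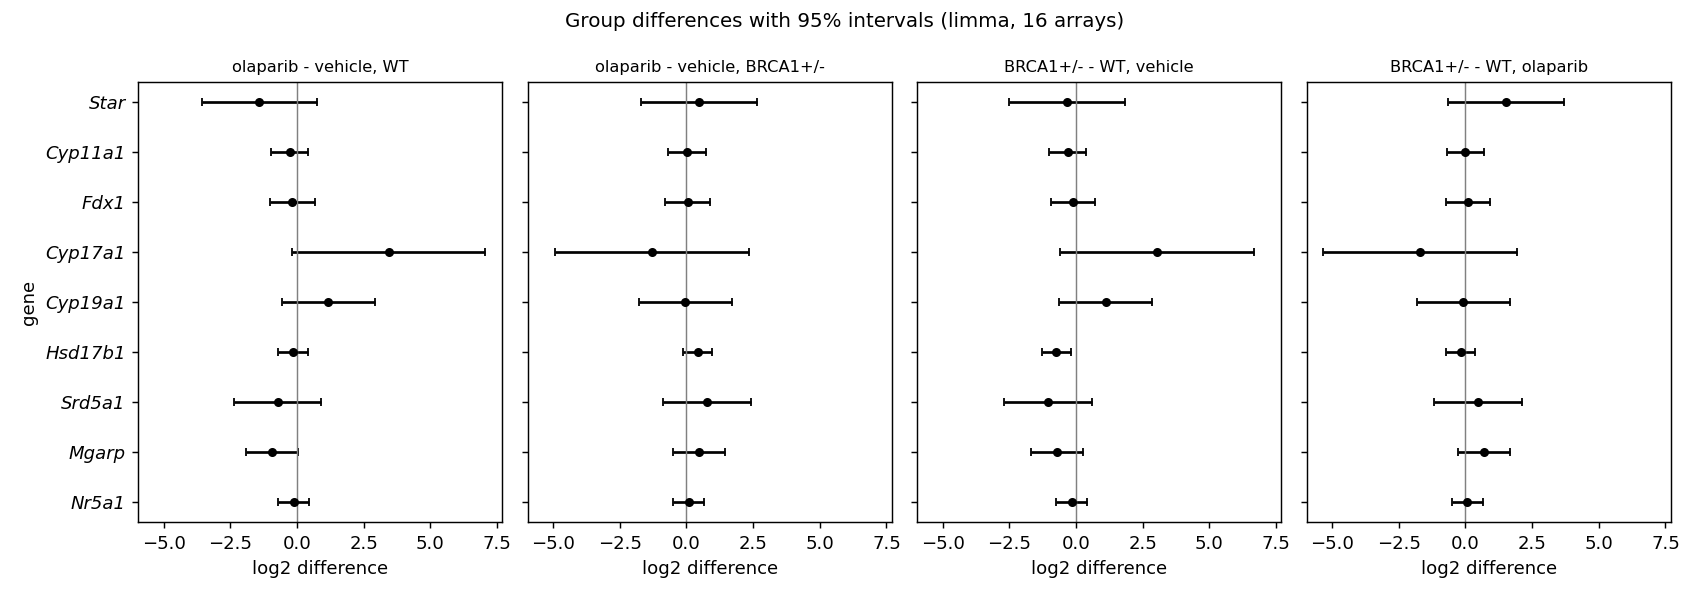
Log2 difference between groups (horizontal axes, points) with 95% intervals from limma (bars) in 4 comparisons for the members, with Akr1d1 left out because it has only a bound in 3 groups. The interval of Hsd17b1 for genotype with vehicle (-1.29 to -0.20) leaves out 0, and those of Cyp17a1 are the widest.

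Ordered by level, the groups of each gene gave 30 neighbouring pairs. Apart from Akr1d1, which has only a bound in 3 of its groups, no gap between neighbours exceeded the larger SD of the pair. The SD within groups was 1.57 for Star, 1.25 for Cyp19a1 and 1.19 for Srd5a1. It was 0.36 for Hsd17b1, 0.39 for Nr5a1 and 0.48 for Cyp11a1. The choice of genes did not name the slides, but it used the spread within groups, of which differences between slides are a part. Slide 2 against slide 1 gave 0 calls among the 10 genes, against 7.91% of all features (4.24% higher and 3.67% lower on slide 2), and 0 of the 10 passed an unadjusted p under 0.05 against 23.9%. With 10 genes, nothing is read from these counts.

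The wider pathway gave the same lack of calls. Of the 27 other steroid enzymes tested, 18 genes of cholesterol delivery and 22 receptors and regulators, limma called 0 in each comparison between groups. At an unadjusted p under 0.05, olaparib in WT ovaries gave 3, 0 and 2 of them (4.33% of all features), with medians of -0.11, -0.18 and -0.19 against -0.07 over all features. Genotype with vehicle gave 2, 1 and 4 (5.49% of all features), olaparib in BRCA1+/- ovaries 0, 0 and 1 (1.18%), genotype with olaparib 0, 0 and 0 (0.915%) and the interaction 2, 0 and 2 (3.43%). Akr1c3 differed by -4.41 (interval -8.72 to -0.11) with olaparib in WT ovaries, where 2 of 4 ovaries were low. It was -1.94 without WT olaparib replicate 3. Between slides, limma called Cyb5a, a partner of CYP17A1, at -0.61, the lipase Lipe at -1.30 and the nuclear receptor Nr5a2 at -0.72, each lower on slide 2 (limma, adjusted p 0.0137, 0.0264 and 0.0256). Without the 6 arrays with an oviduct score above 0, limma called 0 in each of the 3 lists, but no BRCA1+/- array of slide 2 is then left. With the mean of all probes it called 0 in cholesterol delivery and in receptors and regulators. Both of those lists also fell to 0 when replicate 1 of the WT vehicle ovaries, replicate 2 of the WT olaparib ovaries, replicate 2 or 3 of the BRCA1+/- vehicle ovaries or replicate 1 of the BRCA1+/- olaparib ovaries was left out. Receptors and regulators fell to 0 too when replicate 1 of the BRCA1+/- vehicle ovaries or replicate 3 of the BRCA1+/- olaparib ovaries was left out.

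Other named genes of the pathway are given by their lowest and highest ovary. Scarb1, which takes up cholesterol from lipoproteins, ran from 4.56 to 6.56 and the mitochondrial protein Tspo from 5.01 to 6.23. Por, the electron donor of CYP17A1 and CYP19A1, ran from 1.53 to 2.63, Akr1c14 from 1.18 to 2.62 and Hsd11b1, which activates glucocorticoids, from -0.70 to 1.97. Fshr, the receptor for follicle-stimulating hormone, ran from 0.24 to 1.77, and the repressor Nr0b1 from -1.31 to 1.23. The inhibin subunit Inha ran from 7.20 to 8.84. Srd5a2 was above background on 9 of 16 arrays.

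The genes whose pattern over the 16 ovaries was most like each member's were sought among 16658 named features well above background on at least 12 arrays, by Pearson r as a description. The ovaries share slides and brightness. Likeness to Cyp17a1 was highest for Myh7, a myosin heavy chain (0.97), and Lcn3 (0.95), but over the 13 ovaries without the 3 low ones r was 0.72 and 0.44. Myh7 read -1.91, -1.15 and -2.53 in those 3 and 1.43 to 3.46 in the rest. Star was most like Rgcc, at 0.95, or 0.60 without its most extreme 2 ovaries. Rgcc read -0.56 in WT olaparib replicate 3 and 3.59 to 5.30 elsewhere. Fdx1 was most like Sfxn1, a mitochondrial carrier, at 0.97, and at 0.93 without its most extreme 2 ovaries. Srd5a1 was most like Nt5e (0.95) and Angpt4 (0.94), which kept 0.84 and 0.92 over the 13 ovaries. For Cyp19a1 the named genes were Kit (0.86) and Dmxl2 (0.86), with 0.67 and 0.71 over the 13. Cyp11a1 was most like Chchd2l3 (0.91), Dpp9 (0.90) and Mt1, a metallothionein (0.89). Without its most extreme 2 ovaries these were 0.73, 0.74 and 0.91. Hsd17b1 was most like Nxpe2 (0.85), Mgarp like Cyp4v3 and Fhl2 (both 0.88), Nr5a1 like Adamtsl2 (0.85) and Akr1d1 like Ocln (0.75). Without the most extreme 2 ovaries of each member these were 0.70, 0.81, 0.84, 0.81 and 0.77. The other named features among the top 3 were Il23r for Star (0.94), Nit1 for Fdx1 (0.94), Vwa5a for Srd5a1 (0.93), Mgst2 for Mgarp (0.87), Etnk2 and C10h17orf100 for Hsd17b1 (both 0.84), Prdm6 for Nr5a1 (0.83) and Gne for Akr1d1 (0.74). Without the most extreme 2 ovaries of each member, these ran from 0.52 for Il23r to 0.87 for Vwa5a. The remaining features had no gene symbol in common use.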

How the data were processed

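Total RNA of 16 ovaries, 1 array each, was labelled with Cy3 and hybridised to Agilent single-colour rat arrays. Agilent Feature Extraction gave the authors' spot intensity values, version 10.7 per the submitters' processing notes and 10.7.1.1 per the file headers, and is background-subtracted and not scaled between arrays. The deposited value table holds log2 values, each column of which is the log2 processed signal shifted by a single amount. Probe positions are those of build rn4 per the file headers.

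Of 45598 non-control probes, 12 had no usable spot on an array. The log2 processed signal minus each array's 75th percentile was used. Probes well above background in at least 3 of 4 arrays of a group were kept (26820 probes), and the brightest probe stood for each gene, giving 20210 features. Probes were named through a RefSeq table by accession (21222), symbol (9335) or older symbol (321), and 8366 kept the file's name. Limma 3.58.1 in R 4.3.3 fitted 4 group means to 16 arrays (12 residual and 2.43 prior degrees of freedom), with two-sided moderated tests and Benjamini-Hochberg adjustment over all features, after the script was tested on simulated data. Number of arrays limits the precision.

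Marker scores average the centred log2 signals of the listed genes. The 10 genes, the gene lists and the tests were chosen with earlier results of these data known. The text names the 10 genes, the 3 features most like each, and a preset list of pathway genes, a member of which is not reported here, with any the fit called. Genes named for standing apart on an array were chosen after their values were seen. Alternatives changed normalization, background, filter, probe choice, array weights and blocks, or left out arrays. Leaving out the arrays with an oviduct score above 0, or the 3 lowest in Cyp17a1, was added after seeing the data.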

Additional observations from a re-analysis of the deposited data

Results flagged for a closer look

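In each of 40 combinations of a gene and a group of 4 ovaries, the highest or lowest ovary was compared with the others of its group, and 3 had an ovary far from the rest. Chance gives about 1 in 20 such combinations for genes chosen without regard to their values. The genes here were chosen partly on their levels and spread in these same arrays. That rate therefore does not apply to them, and nothing is read from the count. Cyp17a1 was far below its group in BRCA1+/- olaparib replicate 4, at -1.93 against 4.61 to 5.70 in the other 3. Mgarp was low in WT vehicle replicate 3, at -3.12 against -1.77 to -1.61, and that array is among the 3 dimmest. Akr1d1 was high in the same ovary, at -6.19 against -7.09 to -6.96, where it was not well above background. The low Star value of WT olaparib replicate 3 and the 2 low Cyp17a1 values of the WT vehicle group did not meet the same measure.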

How the results depend on the processing

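No member was called in any group comparison under any alternative run. Without WT olaparib replicate 4, 1 of all features was called for olaparib in BRCA1+/- ovaries. Of 1340 recomputed group differences of the members, 1320 moved by less than the spread between replicates and 20 by more, with the causes not tested. Part of the 1340 could not move. In this balanced layout a slide or replicate block leaves a group difference unchanged, as does leaving out an array of a group not compared. The count therefore does not measure how stable the differences are. With normexp background, olaparib in WT ovaries gave 0.05 for Akr1d1, its genotype difference with olaparib was -0.24 and its interaction -0.15. Replicate numbers are shared across groups, and arrays of the same number lay on the same slide and in the same slide row. Same-numbered ovaries correlated from -0.44 to 0.71 in their deviations (24 pairs, 13 over 0.1). Their mean r was 0.2, against -0.06 for other numbers. The numbers thus mark positions on the slides, and the labels do not say that they pair animals. With a replicate block the Cyp17a1 difference stayed 3.44, as it must in this layout. No count of calls among the members changed. Counts at an unadjusted p under 0.05 went from 1 to 3 for olaparib in WT ovaries and from 2 to 3 for the interaction.

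With 1 array left out some group differences turned sign, though counted above as moving by less than the spread between replicates. For olaparib in BRCA1+/- ovaries Cyp17a1 ran from -2.10 to 0.44. For olaparib in WT ovaries Fdx1 ran from -0.49 to 0.24. Others kept their sign, such as Cyp17a1 for olaparib in WT ovaries, from 2.34 to 4.55. Slide differences turned sign 11 times. Cyp11a1 went from 0.25 to -0.28 with quantile normalization and -0.03 with the mean of all probes. Mgarp went from -0.33 to 0.02 with normexp and 0.12 with array weights. Hsd17b1, at -0.02, ran from -0.10 to 0.09 with 1 array left out (0.02, 0.06, 0.07 and 0.09 where it turned), and was 0.33 without the arrays with oviduct signal and 0.02 without the 3 lowest in Cyp17a1. Cyp17a1 went from -1.05 to 0.06 without the arrays with oviduct signal. Slide calls, 1 each among other enzymes, cholesterol delivery and receptors, became 3 enzymes with quantile normalization, 0 for cholesterol with normexp, 2 enzymes with probes above background on all arrays, 2, 0 and 0 with the mean of all probes and 5, 4 and 4 with array weights. They were 0, 0 and 0 without the arrays with oviduct signal, and 3 enzymes and 2 for cholesterol without the 3 arrays lowest in Cyp17a1. With 1 array left out they ran from 1 to 4, 0 to 2 and 0 to 1. Slide calls over all features ran from 32 without the arrays with oviduct signal to 3512 with array weights. Of the arrays with oviduct signal, only WT olaparib replicate 1 lay on slide 1. Without them no BRCA1+/- array of slide 2 is left, and the slide difference rests on WT ovaries. The part of oviduct signal in these changes cannot be told apart from the loss of those arrays. With 4 ovaries a group, and Akr1d1 near background, small differences could not be resolved.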
